A study of Mus musculus with 6 samples.

Results

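A group of 10 genes known from both blood vessels and blood stem cells was read here in 1 clone of mouse haematopoietic progenitor cells, and Myct1 was the only member that passed the test of withdrawal against doxycycline. The genes are Myct1, Tek, Tie1, Cdh5, Eng, Kdr, Emcn, Pecam1, Egfl7 and Esam. Members were every probe set (a group of short probes made to 1 transcript) whose platform annotation names exactly 1 gene symbol and that symbol is on this list. All 10 genes were found, on 18 of 45037 probe sets, out of 18193 genes named this way. Myct1 and Egfl7 had 4 probe sets each, Eng and Cdh5 had 2 each, and 6 genes had 1 each.

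The clone, C6, is myeloid and comes from Rosa26rtTA C57BL/6J cells, which carry the doxycycline-dependent activator rtTA at the Rosa26 locus. It bears the lentiviral construct pRRL.TET.Evi1.IRES.EGFP, so that doxycycline switches on a codon-optimized mouse Evi1 together with the green marker EGFP, and the series calls the clone Evi1 dependent. Evi1 is a zinc finger transcription factor of stem cells encoded by the Mecom locus. The doxycycline group comprised 3 arrays of cells kept under the drug at 1 µg/ml, and the withdrawal group 3 arrays of cells 48 h after it was removed, all in medium with mouse stem cell factor (50 ng/ml), mouse interleukin 3 (20 ng/ml), human Flt3 ligand (50 ng/ml) and human interleukin 11 (50 ng/ml). The groups thus differ both in Evi1 induction and in the drug itself, which cannot be told apart, and all cells derive from 1 clone. The labels do not say that replicates were separate cultures, so the p-values cover no more than the spread among arrays, possibly of technical origin.

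Haematopoietic stem cells arise in the embryo from haemogenic endothelium, a specialised endothelium, and share part of their surface equipment with endothelial cells. The angiopoietin receptor Tek and its relative Tie1, the VEGF receptor Kdr and the TGF-beta co-receptor endoglin (Eng) receive signals. Cdh5 (VE-cadherin), Pecam1 and Esam serve contact between cells, and Emcn encodes the sialomucin endomucin. Egfl7 is a secreted matrix-bound factor, and Myct1 is a membrane protein gene first described as a Myc target. Several of these genes are used to mark stem cells in mouse bone marrow.

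The promoter of Myct1 is shown because Myct1 carried the difference between the groups. That of Eng, which did not pass on either of its probe sets, was chosen after its matches were seen, and of the letters marked below it holds only AGGAAG. Each line gives the 250 bases before the RefSeq transcription start in assembly GRCm38.p6, on the strand of the gene; the Myct1 window is chr10:5593478-5593727 (plus strand) and the Eng window is chr2:32646345-32646594 (plus strand). Capitals mark matches to AGATAA (the letters bound by GATA factors), AGGAAG (ETS factors) or CAAGATA (part of the site of the first zinc finger domain of Evi1) on either strand.
Myct1: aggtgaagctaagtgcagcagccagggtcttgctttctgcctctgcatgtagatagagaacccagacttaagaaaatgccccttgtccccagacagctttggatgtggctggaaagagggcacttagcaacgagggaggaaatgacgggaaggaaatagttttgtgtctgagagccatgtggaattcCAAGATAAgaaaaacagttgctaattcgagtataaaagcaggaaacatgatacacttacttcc
Eng: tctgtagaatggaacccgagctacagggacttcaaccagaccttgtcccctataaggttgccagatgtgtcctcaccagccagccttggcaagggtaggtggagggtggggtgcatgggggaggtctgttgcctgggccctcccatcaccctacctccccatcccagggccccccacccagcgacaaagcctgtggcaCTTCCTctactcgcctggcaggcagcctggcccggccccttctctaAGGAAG
In the Myct1 window CAAGATA (63 to 57 bases before the start) and AGATAA (61 to 56 bases before it) overlap. RefSeq promoter windows were matched for 7 of the 10 genes, 9 windows in all, because Egfl7 has 3; Cdh5, Pecam1 and Esam were not matched. Of these 9 windows only that of Myct1 held CAAGATA, which stood in 2.03% of all 32851 windows of the same length, and only that of Myct1 held AGATAA, against 9.99% of all windows. AGGAAG was found in 5 of the 9 windows, those of Emcn, Eng and Tie1 and 2 of Egfl7, and in 29.5% of all windows. The E-box letters CANNTG stood in 8 of the 9 windows and in 66.2% of all. A match describes letters and is no evidence of binding. Only these exact letters were searched, so a window without AGGAAG is not shown to lack sites of ETS factors. The Myct1 window does hold the shorter run GGAA.

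The arrays were alike in median, from 5.22 to 5.27 on the log2 scale of the deposited values. Their interquartile ranges ran from 3.71 (withdrawal replicate 3) to 3.92 (withdrawal replicate 1). In the fit with array weights, withdrawal replicate 3 had the lowest weight (0.48) and withdrawal replicate 2 the highest (2.26). On a principal component analysis of the brighter probe sets, withdrawal replicate 3 and doxycycline replicate 1 stood apart on the second component (31.9% of the variance), and a call named below that was lost without both of them is given as such. The natural Mecom sequence was read by 3 probe sets at 2.57 to 3.88 on all 6 arrays, near the floor, with limma adjusted p of at least 0.615. Because the transgene is codon-optimized these probe sets may not read it, so they do not check the labels. Of 8 defining genes of myeloid progenitors, such as Ptprc, Spi1 and Mpo, all lay above the median of all probe sets (5.24), and their mean level ran from 11.71 to 11.80 over the doxycycline and from 12.03 to 12.09 over the withdrawal arrays. Among these Elane and Cebpa rose (0.74 ± 0.07 each), calls lost without both arrays apart (limma adjusted p = 0.0767 and 0.0652), and their part in the results below was not tested. At an unadjusted p below 0.05 in limma, 0 of the 8 were lower and 6 higher, against 7.48% and 6.85% of all probe sets. Those shares count every probe set, whereas the 8 genes were read on their brightest, so the bases are unlike. By the adjusted p used below, 1.57% of all genes were called lower and 1.2% higher on their brightest probe sets. Of 5 megakaryocyte genes read of 6 listed, 3 fell (median difference -0.59), and their mean level ran from 7.58 to 7.74 over the doxycycline and from 6.91 to 7.03 over the withdrawal arrays. Ppbp, a platelet chemokine, fell by 1.71 on the log2 scale (SE 0.16, limma adjusted p = 0.00262). The call was kept in all 12 other fits that tested it, and the filter on dim probe sets left Ppbp out. After withdrawal Ppbp read 3.93, 4.29 and 4.14, below the median of all probe sets, so the size of its fall may be compressed. Pf4 (-0.59 ± 0.07, limma adjusted p = 0.00807) lost its call without doxycycline replicate 2 or 3 or without both arrays apart (adjusted p at most 0.0737). Gp9 (-0.67 ± 0.11, limma adjusted p = 0.0309) lost it when any 1 array but withdrawal replicate 3 was dropped or without both arrays apart (highest adjusted p among all fits 0.132). Itga2b (-0.35 ± 0.08, limma adjusted p = 0.0776) and Gp1bb (-0.09 ± 0.09, limma adjusted p = 0.753) did not pass. Ppbp, Pf4 and Gp9 moved with the fall of Myct1 and of the adhesion genes described below, and their part in it was not tested. Of 5 stromal genes 4 lay below that median. Of 10 defining endothelial genes 8 lay below it, Nos3, Cldn5 and Sox18 among them, and the other two, Vwf and Icam2, are also expressed in megakaryocytes or leukocytes. None of the 10 passed the test in limma. At an unadjusted p below 0.05 in limma, 1 of the 10 was lower and 0 higher, against 7.48% and 6.85% of all probe sets, again an unlike base. The mean level of the 10 ran from 5.32 to 5.38 over the doxycycline arrays and from 5.38 to 5.39 over the withdrawal arrays. In these bulk samples fewer cells of a type and less RNA per cell cannot be told apart.

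After doxycycline withdrawal Myct1 fell on 3 of its 4 probe sets, and no other member passed the test. Differences are given in log2 units as the withdrawal mean less the doxycycline mean, ± the standard error that limma estimated (n = 3 arrays a group), and a probe set passed when its p, adjusted by Benjamini-Hochberg over all 45037 probe sets, was below 0.05. Of the 18 probe sets 3 were called lower and 0 higher, whereas 1.18% of all probe sets were called lower and 0.79% higher. At an unadjusted p below 0.05 in limma, 4 of the 18 were lower, all of Myct1, and 3 higher, all of Egfl7, against 7.48% and 6.85% of all probe sets. Probe sets of 1 gene are not independent, so these counts do not describe the group of genes. When each gene was taken from its brightest probe set alone, 1 of 10 was lower and 0 higher, against 1.57% and 1.2% of 18193 genes. The median difference of the 18 probe sets was -0.06, and over all probe sets it was 0.01.

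**Figure D1:**
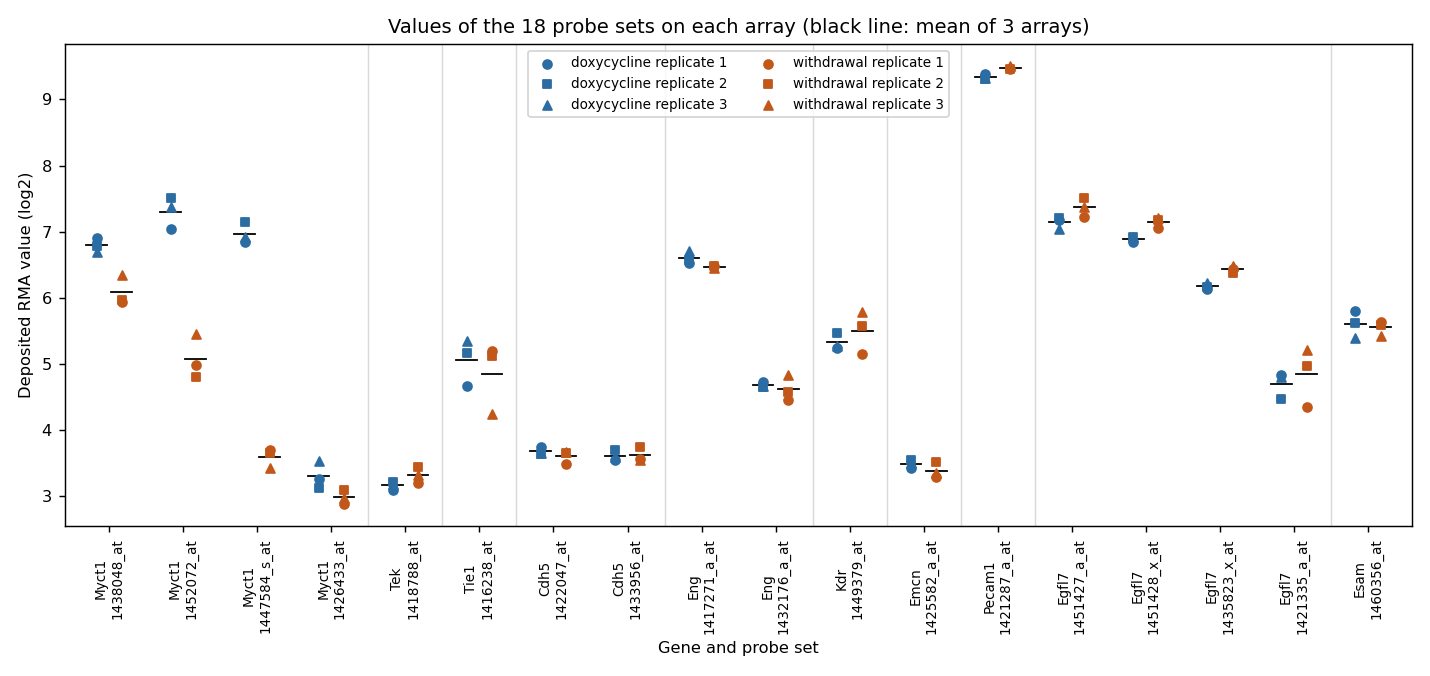
Deposited RMA values (log2, vertical axis) of the 18 probe sets of the 10 genes (horizontal axis) on each of the 3 doxycycline arrays (blue) and 3 withdrawal arrays (orange), with symbols for the replicate number and black lines for group means. The groups are far apart on the Myct1 probe sets 1447584_s_at and 1452072_at, while the levels of different probe sets cannot be set against each other.

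On Myct1 probe set 1447584_s_at the doxycycline arrays read 6.84, 7.15 and 6.93 and the withdrawal arrays 3.70, 3.65 and 3.42. The groups were separated by a wide gap, and withdrawal brought the signal close to the floor of the arrays, where the lowest value in the table is 2.22. The difference was -3.38 ± 0.11 (limma adjusted p = 2.00e-05), or 10.4-fold on the deposited scale. By size on that scale it was the 2nd largest fall among the 45037 probe sets, after that of the cathepsin gene Ctsj (-5.73). Both the fold and the rank are uncertain, because values near the floor are compressed. By its name ending, _s_at, it may also hybridise with other transcripts, although the annotation names Myct1 alone.

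On probe set 1452072_at the doxycycline arrays read 7.04, 7.51 and 7.37 and the withdrawal arrays 4.98, 4.80 and 5.45. These groups did not overlap either, with withdrawal replicate 3 the highest of its group and doxycycline replicate 1 the lowest of its own. Here Myct1 differed by -2.23 ± 0.18 (limma adjusted p = 0.00172), which is 4.68-fold lower and stood at rank 12 among the falls of all probe sets.

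The brightest Myct1 probe set by its mean over the 6 arrays, 1438048_at, moved least among those that passed. It read 6.91, 6.78 and 6.69 under doxycycline and 5.94, 5.97 and 6.35 after withdrawal, again without overlap. The difference was -0.71 ± 0.12 (limma adjusted p = 0.0357), or 1.63-fold. This call was lost when any 1 array other than withdrawal replicate 3 was left out, with adjusted p between 0.0915 and 0.150, and without both arrays that stood apart, at adjusted p = 0.0522. Without withdrawal replicate 3 the difference was -0.84 (limma adjusted p = 0.0116).

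The remaining Myct1 probe set, 1426433_at, read 3.26, 3.12 and 3.54 under doxycycline and 2.89, 3.10 and 2.98 after withdrawal. Its values lay near the floor in both groups, which did not overlap but came close, and its difference of -0.32 ± 0.12 did not pass (limma adjusted p = 0.269). It was designed from the same sequence entry as 1452072_at, per the platform annotation. Probe sets of this gene therefore gave unequal changes on the same RNA: 1438048_at minus 1447584_s_at was 0.07, -0.37 and -0.23 on the doxycycline arrays and 2.24, 2.32 and 2.93 on the withdrawal arrays. With the mean of all its probe sets Myct1 fell by 1.66 on the log2 scale (SE 0.07, limma adjusted p = 3.60e-05 over all genes). The larger falls were kept in each of 13 other fits: the difference of 1447584_s_at ran from -3.45 to -3.29 (adjusted p at most 0.00330) and that of 1452072_at from -2.54 to -2.09 (adjusted p at most 0.0182).

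**Figure D2:**
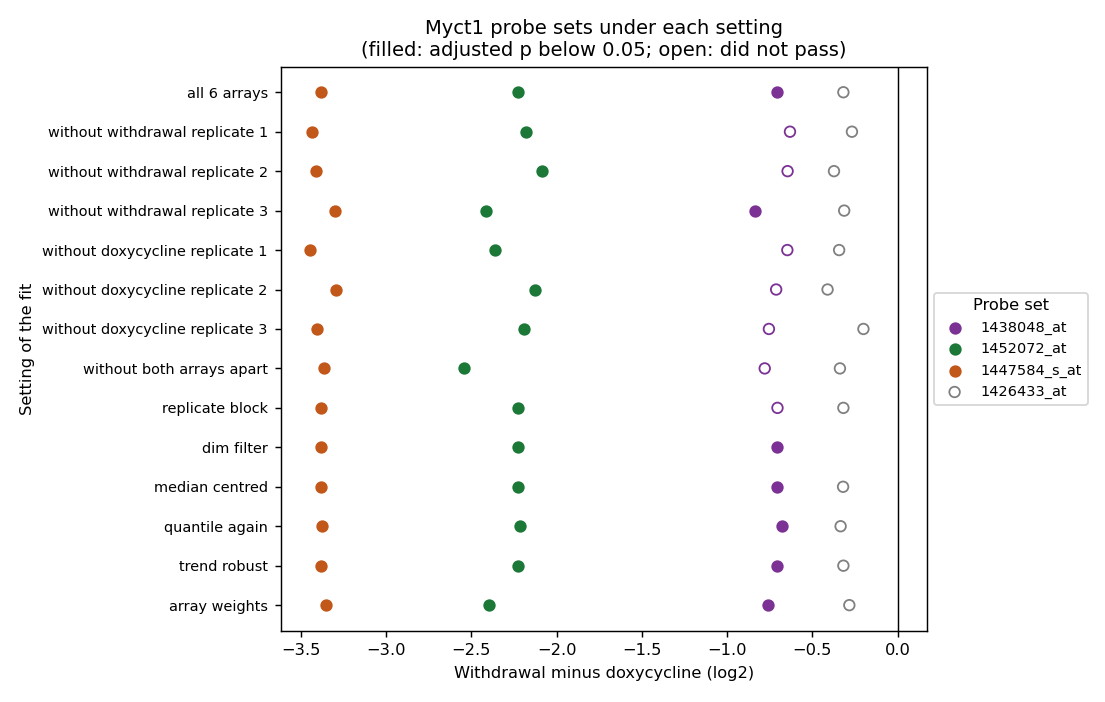
Differences of the 4 Myct1 probe sets (withdrawal minus doxycycline, log2, horizontal axis) in the fit to all 6 arrays and in 13 other fits (vertical axis); filled points passed an adjusted p of 0.05 and open points did not. Probe sets 1447584_s_at and 1452072_at passed in every fit shown, 1438048_at in the fit to all arrays and 6 others, and 1426433_at in none of the 12 others that tested it, since the filter on dim probe sets removed it.

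Genes beside Myct1 and genes with a like pattern were looked at on their brightest probe sets. In the RefSeq order of protein-coding genes Esr1 and Syne1 come before Myct1 and Vip after it. Syne1, a nuclear envelope gene, rose by 0.55 ± 0.08 (limma adjusted p = 0.0153). It no longer passed without any 1 doxycycline array, without withdrawal replicate 2 or without both arrays apart (highest adjusted p among all fits 0.128). Esr1 (0.20 ± 0.08) and Vip (0.02 ± 0.12) did not pass. Likeness was the root mean square difference of centred values over the 6 arrays from Myct1 probe set 1438048_at among 13252 other genes. The closest were Ids, a lysosomal sulfatase gene (0.104), Sla2, an adaptor of antigen receptor signalling (0.110), Rasl11a (0.112) and the platelet glycoprotein gene Gp9 (0.113), all in log2 units. Nothing follows from this order for the steeper probe sets of Myct1.

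Among the adhesion members, Pecam1, an immunoglobulin-type molecule of endothelium, platelets and leukocytes, was bright and nearly level. Its probe set read 9.38, 9.31 and 9.32 under doxycycline and 9.46, 9.46 and 9.51 after withdrawal. The withdrawal arrays all lay above the doxycycline arrays by a small step. The difference was 0.14 ± 0.06 (95% interval -0.01 to 0.28, limma adjusted p = 0.389), which did not pass. Groups without overlap are common in these data: 10.7% of all probe sets had all withdrawal arrays below and 10.2% all above the doxycycline arrays. Of the 18 probe sets 5 were of the first kind, namely 4 of Myct1 and 1 of Eng, and 4 of the second, namely 3 of Egfl7 and that of Pecam1.

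The other adhesion genes and Emcn lay low or in the middle of the range. Cdh5, the cadherin that defines endothelial junctions, read 3.49 to 3.75 over all 6 arrays on 1422047_at and 3.55 to 3.74 on 1433956_at. These values are near the floor, where a fall would be compressed, and the differences of -0.07 ± 0.08 and 0.01 ± 0.08 for Cdh5 did not pass. Emcn likewise read 3.42, 3.55 and 3.50 under doxycycline and 3.29, 3.52 and 3.35 after withdrawal, with overlapping groups and a difference of -0.11 ± 0.08 (limma adjusted p = 0.638). Esam, a junctional immunoglobulin-type molecule used to mark stem cells, read 5.80, 5.63 and 5.39 under doxycycline. After withdrawal Esam read 5.64, 5.60 and 5.43, within that range. Its difference was -0.05 ± 0.11 (95% interval -0.32 to 0.21).

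The receptors showed no call. Tek, the angiopoietin receptor, was near the floor at 3.10, 3.22 and 3.18 under doxycycline and 3.21, 3.45 and 3.32 after withdrawal, a difference of 0.16 ± 0.08 (limma adjusted p = 0.451). Tie1, its relative, varied more within groups than between them. It read 4.66, 5.17 and 5.35 under doxycycline and 5.19, 5.12 and 4.25 after withdrawal, so the interval of its difference was wide (-0.20 ± 0.27, 95% interval -0.84 to 0.43). Without withdrawal replicate 3, the lowest array, the sign of the Tie1 difference turned (0.10).

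Kdr read 5.24, 5.46 and 5.28 under doxycycline and 5.15, 5.58 and 5.78 after withdrawal. The withdrawal arrays straddled the doxycycline arrays, and the difference of 0.18 ± 0.16 did not pass (limma adjusted p = 0.692); without both arrays that stood apart it was -0.01. Eng read 6.52, 6.57 and 6.71 under doxycycline and 6.49, 6.49 and 6.45 after withdrawal on 1417271_a_at. The groups of Eng were just separated, by a difference of -0.13 ± 0.07 (95% interval -0.30 to 0.04, limma adjusted p = 0.505). Its dimmer probe set, 1432176_a_at, had overlapping groups (-0.06 ± 0.10).

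Egfl7, the secreted factor, had slightly higher values after withdrawal on 3 probe sets, none of which passed. On 1435823_x_at the doxycycline arrays read 6.13, 6.17 and 6.23 and the withdrawal arrays 6.43, 6.38 and 6.48, a difference of 0.26 ± 0.07 (limma adjusted p = 0.123). On 1451428_x_at they read 6.84, 6.93 and 6.92 against 7.06, 7.17 and 7.21, a difference of 0.25 ± 0.07 (limma adjusted p = 0.153). Both passed when only probe sets above the median level were tested, at adjusted p = 0.0342 and 0.0482, and in none of the 12 other fits. On 1451427_a_at the difference was 0.23 ± 0.09 (limma adjusted p = 0.322), and on the dim 1421335_a_at it was 0.14 ± 0.21 with overlapping groups. The ending _x_at marks probe sets that can cross-hybridise, and these probe sets of 1 gene are not independent.

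**Figure D3:**
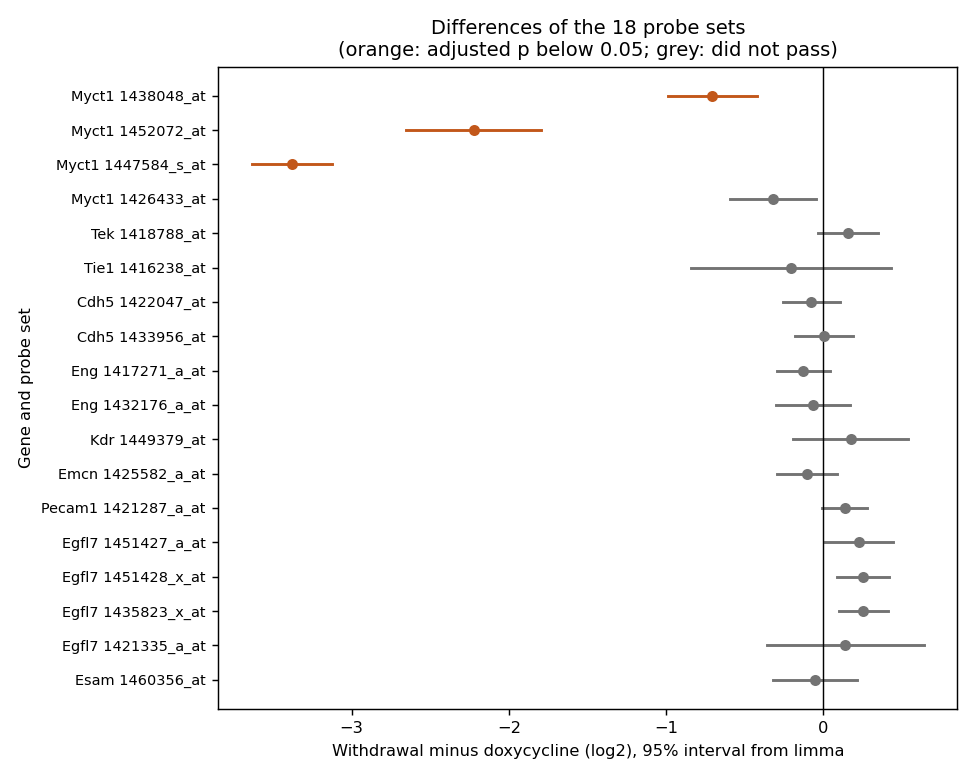
Difference of each of the 18 probe sets (withdrawal minus doxycycline, log2, horizontal axis) with its 95% interval from limma, by gene and probe set (vertical axis); orange marks an adjusted p below 0.05. The 14 probe sets of the genes other than Myct1 lie between -0.20 and 0.26.

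Another 5 lists of genes that work with the members were read on each gene's brightest probe set, for which 1.57% of all genes were called lower and 1.2% higher. Of 13 ligands and partner receptors of the Tie and VEGF systems, 1 fell, 1 rose and 11 did not pass (median difference 0.05, against 0.01 over all genes). Angpt1, the ligand of Tek, read 9.69, 9.58 and 9.65 under doxycycline and 9.14, 8.96 and 9.04 after withdrawal, and fell by 0.59 on the log2 scale (SE 0.07, limma adjusted p = 0.00958). The call was lost without doxycycline replicate 1 or 3, without withdrawal replicate 2 or without both arrays apart (highest adjusted p among all fits 0.140), and with the mean of both Angpt1 probe sets (-0.33). Nrp1, a co-receptor of VEGF, read 9.91, 9.88 and 9.80 under doxycycline and 10.51, 10.37 and 10.47 after withdrawal. Nrp1 rose by 0.59 ± 0.07 (limma adjusted p = 0.00807), a call lost without doxycycline replicate 3 or without both arrays apart (highest adjusted p among all fits 0.112). The VEGF receptor Flt1 (0.28 ± 0.13) and the ligand Vegfc (-0.20 ± 0.13) did not pass.

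None of 15 partners of endoglin, BMP receptors and targets passed the test in limma (median difference -0.08). At an unadjusted p below 0.05 in limma, 5 of the 15 were lower and 0 higher, against 7.48% and 6.85% of all probe sets. The 15 were read on their brightest probe sets, so these shares have an unlike base. The largest differences in this list were those of Smad6, an inhibitor of BMP signals (-0.53 ± 0.12, limma adjusted p = 0.0755), and the receptor Bmpr2 (-0.42 ± 0.08, limma adjusted p = 0.0567). Both passed in 1 or more of the other fits, Bmpr2 in 4 of 13 and Smad6 in 1 of 12. With the mean of its 3 probe sets, of which 0 were called, Bmpr2 differed by only -0.14 (limma adjusted p = 0.326). Smad6 has 1 probe set and passed in that fit over genes (limma adjusted p = 0.0433).

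Junction and adhesion genes had 5 falls and 0 rises among 16 (median difference -0.21). Selp (P-selectin) read 8.77, 8.67 and 8.73 under doxycycline and 5.96, 5.97 and 5.94 after withdrawal, a difference of -2.77 ± 0.06 (limma adjusted p = 2.90e-06). Podxl, a sialomucin related to CD34, differed by -1.13 ± 0.07 (limma adjusted p = 4.69e-04), although only 1 of its 2 probe sets was called. Both these calls were kept in all 13 other fits on the same probe sets. F11r, a junctional adhesion molecule, differed by -0.63 ± 0.08, although only 1 of its 2 probe sets was called. That call was lost without any 1 doxycycline array or without both arrays apart (highest adjusted p among all fits 0.159). The others, named after their values were seen, were Tjp1, a tight junction scaffold (-0.54 ± 0.08), and Cd34 (-0.51 ± 0.10). The call of Tjp1 was lost without doxycycline replicate 1 or 3, withdrawal replicate 2 or both arrays apart, and that of Cd34 when any 1 array but withdrawal replicate 1 or both arrays apart were dropped or arrays were centred on their medians (highest adjusted p among all fits 0.156 and 0.272). Ctnna1, the catenin that ties cadherins to actin (-0.32 ± 0.07), and Cd93 (-0.31 ± 0.06) did not pass. Megakaryocytes, whose markers are given above, also make P-selectin.

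Of 16 transcription factors of endothelium and stem cells 2 fell, 1 rose and 13 did not pass (median difference 0.05). Tal1 (-0.66 ± 0.06, limma adjusted p = 0.00325) and its partner Lmo2 (-0.42 ± 0.06, limma adjusted p = 0.0241) fell, and Ets1 rose by 0.55 ± 0.09 (limma adjusted p = 0.0342, with 2 of its 4 probe sets called). All these calls were lost without both arrays apart, that of Tal1 in no other fit (adjusted p = 0.0711), that of Lmo2 also when any 1 array but withdrawal replicate 3 was dropped and that of Ets1 also when any 1 but withdrawal replicate 2 was (highest adjusted p among all fits 0.140 and 0.182). Gata2 (0.21 ± 0.07) and Fli1 (0.18 ± 0.07) did not pass. Stem and progenitor surface genes had 2 falls and 2 rises among 10 read of 12 listed (median difference -0.11). Procr, the protein C receptor, differed by -0.56 ± 0.10 (limma adjusted p = 0.0421), a call lost without any 1 array or both arrays apart, and Cd34 was the other fall. Prom1 rose by 0.68 ± 0.06 (limma adjusted p = 0.00251), lost only without both arrays apart (adjusted p = 0.0624), and the chemokine receptor gene Cxcr4 by 0.49 ± 0.08 (limma adjusted p = 0.0249), lost when any 1 array but withdrawal replicate 3 or both arrays apart were dropped (highest adjusted p among all fits 0.119). Slamf1 (-0.48 ± 0.11) and Itga2b (-0.35 ± 0.08) did not pass.

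**Figure D4:**
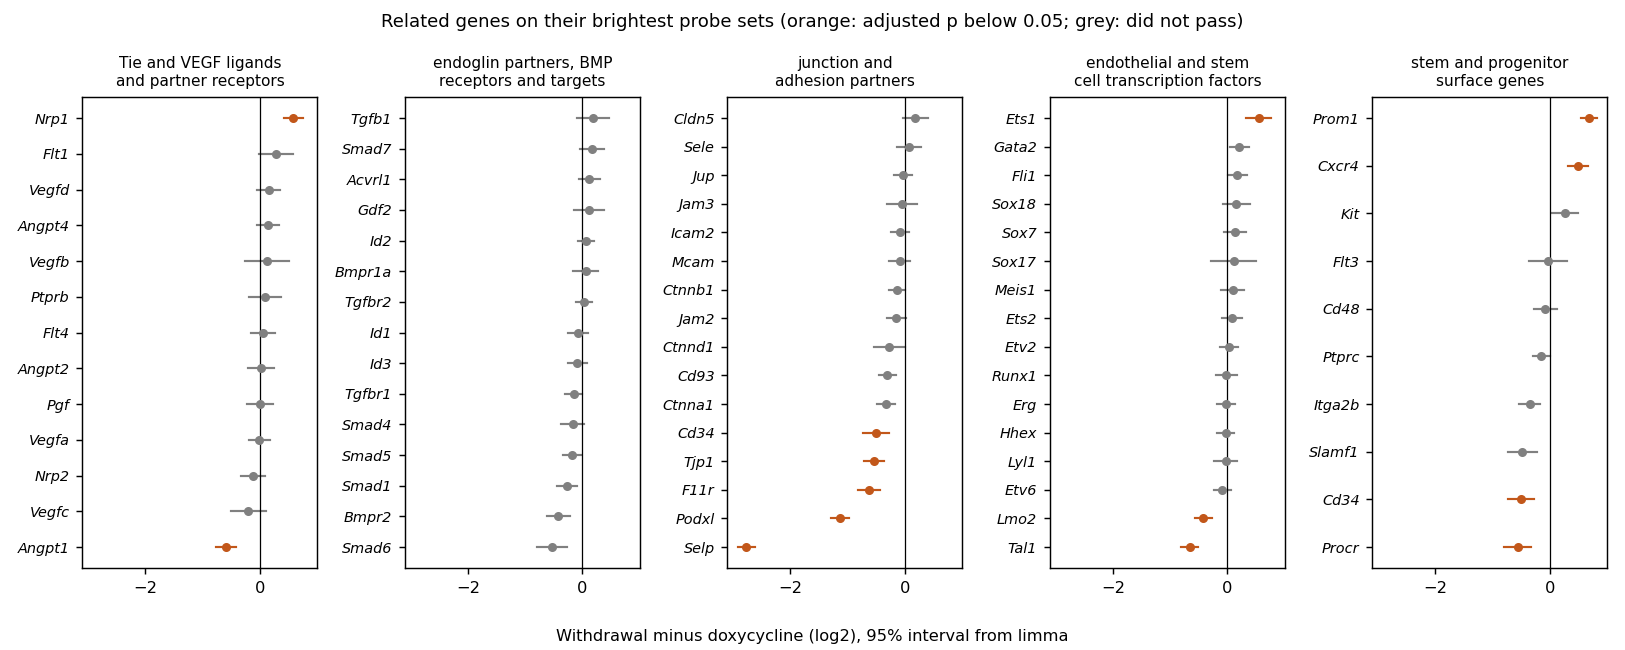
Differences (withdrawal minus doxycycline, log2, horizontal axes) with 95% intervals from limma for the genes of the 5 related lists, each on its brightest probe set; orange marks an adjusted p below 0.05. Selp (-2.77) and Podxl (-1.13) lie farthest from 0, and no gene of the endoglin list is orange.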

How the data were processed

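RNA of 6 samples was amplified as cDNA, labelled with biotin and hybridised to 1 array each, per the labels' protocols. The table deposited by the authors holds log2 values made with RMA, per the submitters' processing notes; the sources used here give no version, chip definition or filter. RMA forces arrays onto 1 distribution and compresses differences near the floor. From 45101 rows 64 control probe sets were left out, and 34945 of 45037 had 1 symbol, 932 several and 9160 none in the platform annotation.

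Groups follow the sample titles. Group means were tested in limma 3.58.1 (lmFit, then eBayes; R 4.3.3) without covariates (4 residual degrees of freedom), two-sided, adjusted by Benjamini-Hochberg over all probe sets. The steps were tested on simulated data. All members are named, and in each related list up to 3 passed genes by adjusted p and up to 2 others by size; Tjp1, Cd34 and the genes beside Myct1 were added after their values were seen. Members and lists were chosen with earlier results of these data known. Alternatives are given in the closing section. Figures were drawn with matplotlib 3.10.9.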

Additional observations from a re-analysis of the deposited data

How the results depend on the processing

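Over all probe sets, 530 were lower and 356 higher; leaving out 1 array gave 173 to 346 lower and 88 to 256 higher, leaving out both arrays apart 94 and 28, the replicate block 197 and 94, the filter on dim probe sets 1082 and 862, trend and robust options 1389 and 1071, and array weights 962 and 758. Among the 18 probe sets 3 lower calls became 2 or 3 with 1 array left out, and the filter on dim probe sets added 2 higher calls (Egfl7). Read from its brightest probe set, Myct1 gave 0 or 1 lower call with 1 array left out and 0 without both arrays apart or with the replicate block; its other probe sets 1447584_s_at and 1452072_at passed in all these fits.

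In the related lists, leaving out 1 array gave for Tie and VEGF genes 0 or 1 lower and 0 or 1 higher, for junction genes 2 to 5 lower, for transcription factors 1 or 2 lower and 0 or 1 higher, and for stem and progenitor surface genes 0 or 1 lower and 1 or 2 higher. Without both arrays apart all lists had 0 calls except junction genes (2 lower). With the replicate block there were 0 higher Tie and VEGF genes, 3 lower junction genes, 1 lower and 0 higher transcription factors, and 0 lower and 1 higher stem and progenitor genes; of the genes given as called in the text, those that did not pass with it were Nrp1, Tjp1, Cd34, Lmo2, Ets1, Procr, Cxcr4, Gp9 and Syne1. With trend and robust options 2 endoglin partners, 8 junction genes and 5 stem and progenitor genes were lower and 2 transcription factors higher. Endoglin partners had 1 lower with the dim filter, the repeated quantile normalization, array weights or the gene mean. Tie and VEGF genes had 0 lower with the gene mean, and stem and progenitor genes 1 lower with median centring.

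Differences that turned sign had not passed: with 1 array left out, Tie1 ran from -0.40 to 0.10, Cdh5 1433956_at from -0.0561 to 0.0456, Eng 1432176_a_at from -0.17 to 0.0180, Egfl7 1421335_a_at from -0.0408 to 0.39 and Esam from -0.16 to 0.0438. Cdh5 1433956_at was -0.00675 after repeated quantile normalization, and without both arrays apart Kdr was -0.00754 and Esam 0.11. The cause of these changes was not tested beyond the fewer arrays or probe sets in a fit. The sample titles number the replicates but do not say whether equal numbers pair arrays. Deviations of same-numbered arrays from their group means correlated at -0.30, 0.46 and -0.03, which with 3 arrays a group cannot decide it. Over all combinations they ran from -0.60 (doxycycline replicate 2, withdrawal replicate 3) to 0.55 (doxycycline replicate 1, withdrawal replicate 3, the arrays that stood apart). The source of this likeness was not tested. The replicate block changed no other call among the 18 probe sets. No alternative scaling moved the median of all differences by more than 0.02. With 3 arrays a group, and 8 of the 18 probe sets below the median level of the arrays, a fall of Cdh5, Emcn or Tek from levels this near the floor would be compressed.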
